A study of Rattus norvegicus with 5 samples.

Results

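The subject is the ovary of a rat given cisplatin 5 times, the study's more severe model, set against the ovary of a rat given saline. The members are the 2 of the series' 5 libraries whose treatment labels name these conditions. They were chosen by label and by similar fragment length, 223.3 bases after 5 injections and 229.9 bases in the control. Both came from female Sprague Dawley rats aged 10 to 12 weeks, with 6 rats in each group of the study and 1 ovary per group taken for RNA sequencing at random. The treated rat received cisplatin into the peritoneum at 3 mg per kg of body weight, weekly, 5 times, and the control rat received 0.9% NaCl 5 times. The control was sampled 2 weeks after its last injection. For the treated rat a collection time was not given in the sources used here. Laparotomy, platelet-rich plasma (PRP) injected into the ovary and antibiotics belonged to 2 other groups.

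Cisplatin is a platinum drug that crosslinks DNA. In the ovary it is known for depleting the pool of primordial follicles and for killing the dividing granulosa cells that surround each oocyte and make oestradiol. Loss of this pool before the usual age is called premature ovarian insufficiency, the condition the model is meant to resemble. Whole ovary holds oocytes, granulosa and theca cells, luteal cells, stroma, vessels and blood, so fewer cells of a type and less RNA per cell cannot be told apart in these values.

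The files number their transcripts and do not pair the numbers with gene names, and 0 of the identifiers were found in the RefSeq gene table used here. Results are therefore given for transcripts, by their length, level and kind of estimate. The tissue could not be checked against marker genes, and no sequence is printed. With 1 library per group there is no estimate of the spread between animals. All values compare 2 single ovaries, no difference was tested, and intervals cover counting error only. Estimated counts summed to 27088350 in the control library and 26383246 after 5 injections. The control library listed 220507 transcripts and the other 239393. Both listed 187206, the control alone 33301, and the 5-injection library alone 52187.

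Levels are in TPM, a relative abundance in which the count is divided by the effective length and each library is brought to a total of 1000000. Transcripts below 5 TPM in both libraries were left out. Differences are log2(TPM + 1) after 5 injections minus log2(TPM + 1) in the control, a scale that understates changes of low transcripts. A difference of at least 2-fold on that scale was counted as higher or lower.

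Most transcripts of the severely treated ovary lay within 2-fold of the control ovary. Of 20635 compared, 16730 lay between the limits, 2041 were higher (9.89%) and 1864 were lower (9.03%). Differences in either direction thus took in 18.9% of transcripts. The middle part of the distribution was narrow, with quartiles at -0.18 and 0.53 log2 units. The median was 0.22, and 66.8% of transcripts lay above 0. The balance of directions turned with the scaling: it was 1368 against 2446 with median-of-ratios scaling, which equalises the median ratio of the libraries, and 1546 against 2202 with quantile normalization, which gives both the same distribution.

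**Figure D1:**
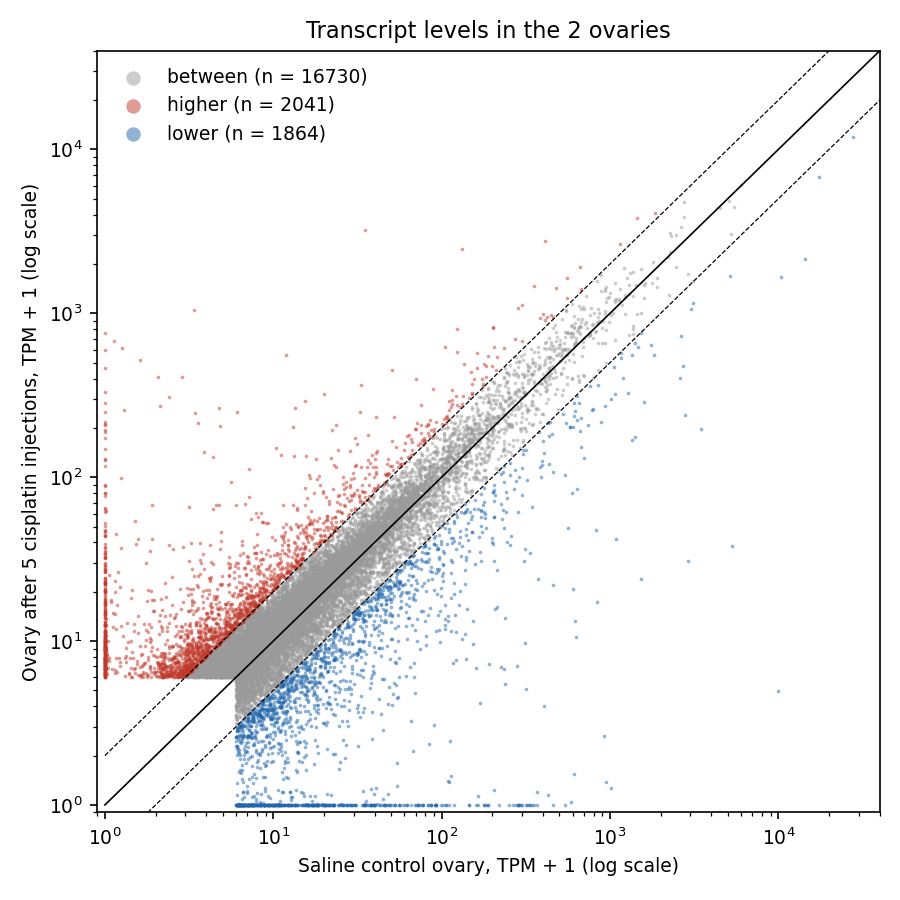
Each point is 1 transcript, with its level in the saline control ovary on the horizontal axis and after 5 cisplatin injections on the vertical axis, both as TPM + 1 on log scales. The solid line marks equal levels and the dashed lines a 2-fold difference; 16730 points lie between the dashed lines, and the points along each axis are transcripts with no or almost no reads in 1 library.

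The 2 limits cut through a continuous distribution. Just outside the filter, 2863 transcripts had a higher level of 4 to 5 TPM, and 12.7% of them were at least 2-fold higher and 6.43% lower. Just inside it, 2177 had a higher level of 5 to 6 TPM, with 12.4% higher and 6.71% lower. Around the fold limit, 318 transcripts were higher by 1.0 to 1.1 log2 units and 384 by 0.9 to 1.0. In the downward direction the numbers were 179 and 200.

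On the TPM scale, large differences ran more often downward, and small ones more often upward. The bands below were not counted with median-of-ratios or quantile scaling, under which lower transcripts outnumbered higher ones at 2-fold or more. Between 2-fold and 4-fold, 1429 transcripts were higher and 1060 lower. Between 16-fold and 64-fold, 94 were higher and 159 lower, and at 64-fold or more 35 were higher and 71 lower. Of those 71, 50 were under 500 bases and 4 had 1000 bases or more. Of the 35, 14 were under 500 bases and 9 had 1000 bases or more. Over all 20635 compared, 5098 were under 500 bases and 11321 had 1000 bases or more. Whole estimates, explained below, made up 1 of the 71 and 0 of the 35, against 3563 of all 20635.

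The part of the library held by these transcripts changed more than their number. The 1864 lower transcripts made up 24.3% of the TPM total of the control ovary and 5.95% after 5 injections. The 2041 higher transcripts made up 3.28% of the control total and 11.7% after 5 injections. The transcripts between the limits made up 63.3% and 69.0%. TPM gives short transcripts more weight than their reads, and shares of the estimated counts were smaller for the lower and higher transcripts. For those between the limits they were larger, at 75.6% in the control library and 74.7% after 5 injections. The lower transcripts held 8.50% of counts in the control library (Wilson 95% interval 8.49 to 8.51) and 1.85% after 5 injections (1.84 to 1.85). The higher transcripts held 2.83% (2.83 to 2.84) and 7.73% (7.72 to 7.74). On both scales the lower transcripts held more of the control library than the higher ones held of the treated library, although they were fewer. These shares follow in part from how the transcripts were sorted into higher and lower.

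**Figure D2:**
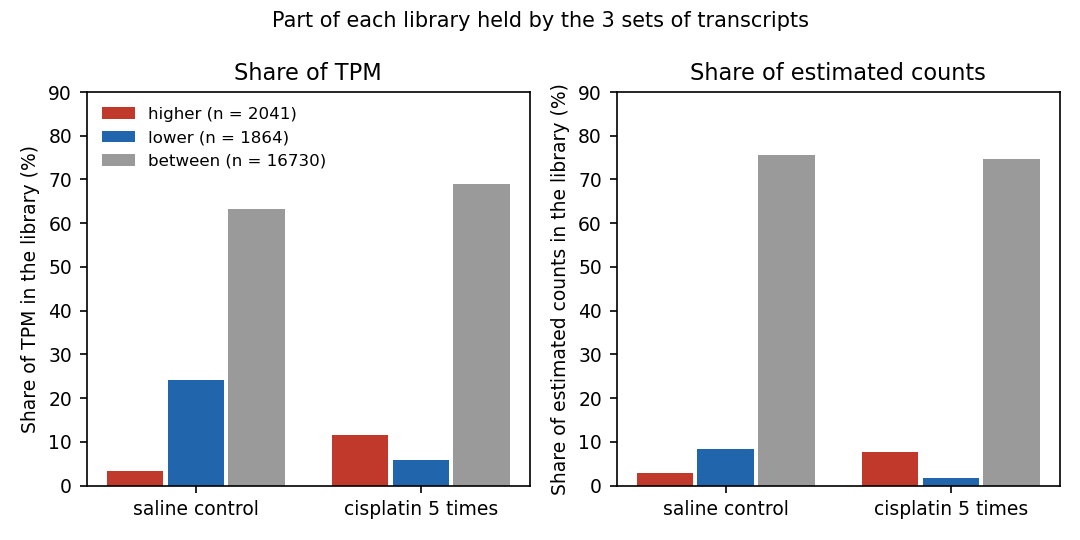
Bars give the part of each library, in percent, held by transcripts higher, lower or between after 5 cisplatin injections, as a share of TPM on the left and of estimated counts on the right. The lower transcripts go from 24.3% to 5.95% of TPM and from 8.50% to 1.85% of counts.

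The downward TPM difference was concentrated in a few abundant short transcripts. The 10 lower transcripts with the largest TPM difference, all under 1000 bases, carried 40.9% of it, and the first 5 carried 31.4%. Together these 10 summed to 99566 TPM in the control ovary and 24657 TPM after 5 injections. In the upward direction the first 10 carried 22.1%, from 6570 to 25101 TPM. The most abundant transcript was the same in both ovaries, 330 bases long, at 27750.7 TPM in the control and 11878 TPM after 5 injections. Of the 10 most abundant in the control, which held 10.7% of its TPM, 7 were lower and 0 higher. After 5 injections those 10 held 3.77%. The 10 most abundant after 5 injections held 5.497% there and 7.50% in the control, with 2 higher and 2 lower. A list picked by its level in 1 of the 2 libraries favours lower levels in the other.

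Abundant transcripts were otherwise largely shared. Of the 100 most abundant in each library, 64 were in both lists, and of the 1000 most abundant 766 were. Of the control's first 100, 35 were lower and 3 higher after 5 injections, and 89 were under 1000 bases. Of the first 100 after 5 injections, 18 were higher and 7 lower. Among transcripts of 1000 bases or more the abundant ones stood closer together. The first 100 of the control held 5.76% of its TPM and 6.40% after 5 injections, with 11 lower and 3 higher, and 76 were also among the first 100 after 5 injections. Both lists of the control were picked by their control level.

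Over all transcripts compared, length went with both the number and the direction of differences. In the shortest class, 15.3% of 5098 transcripts were higher and 20.01% lower. From 500 to under 1000 bases, 622 of 4216 were higher (14.8%) and 538 lower (12.8%). From 1000 to under 2000 bases, 276 of 3179 were higher (8.68%) and 163 lower (5.13%). From 2000 to under 4000 bases, 187 of 4182 were higher (4.47%) and 82 lower (1.96%). The spread narrowed as well, since the quartiles were 0.09 and 0.47 log2 units in the class of 4000 bases or more, against -0.78 and 0.59 in the shortest class. Over all lengths from 1000 bases up, 639 of 11321 were higher (5.64%) and 306 lower (2.70%), against 9.89% and 9.03% over all transcripts.

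Medians by length ran the other way among whole estimates, explained below, but over all transcripts they ran in the same order. The median log2 difference was -0.10 in the shortest class, under 500 bases, and 0.15 from 500 to under 1000. It was 0.28, 0.26 and 0.27 in the classes from 1000, 2000 and 4000 bases. The last 3 are almost equal on this scale. With CPM, in which counts are scaled to the library total without regard to length, they were 0.047, 0.080 and 0.13 and thus rose with length. Each scaling was filtered on its own values, however. With CPM these classes held 3345, 6558 and 9026 transcripts, against 3179, 4182 and 3960 with TPM. The part of this change of set in the CPM medians was not tested. The gap between the longest and the shortest class was 0.37 log2 units, and it was 0.39 with median-of-ratios scaling, 0.36 with quantile normalization and 0.50 with CPM. The sign of the medians was less firm. Under 500 bases the median was negative with each of these scalings, but at 4000 bases or more it was 0.04 with median-of-ratios scaling and -0.15 with size factors over all transcripts listed in both libraries.

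Depth and effective length differed between the classes. At 5 TPM, a transcript of median effective length under 500 bases had about 23.4 reads in the control library and 19.9 after 5 injections. At 4000 bases or more it had 738 and 608. The median effective length of listed transcripts under 500 bases was 171.3 bases in the control and 177.7 after 5 injections. Longer effective lengths lower the TPM of short transcripts, and the part of this in the length gradient was not tested. Of the called transcripts, the median count in the library with the higher level was 163 for those higher and 186.7 for those lower, and the smallest was 12.6 and 14.8.

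The quantification program was not named. Estimates that are not whole numbers were taken to come from reads divided among similar transcripts, and are called divided here. On that reading, transcripts with whole estimated counts in both libraries, 3563 of the 20635, hold few divided reads. A whole number can also result when all shared reads go to a single copy. Of these, 8.06% were higher and 1.91% lower, numbering 287 and 68. Of the 17072 with divided estimates, 1754 were higher (10.3%) and 1796 lower (10.5%). Lower transcripts were thus a smaller share of the whole estimates than of all transcripts, at 9.03%. The excess of higher ones among whole estimates varied with the scaling. Filtered on each scaling's own values, it was smaller with quantile normalization, at 164 higher and 91 lower. It was also smaller with median-of-ratios scaling, at 138 and 104, and with CPM, at 116 and 94. It turned with size factors taken over all transcripts listed in both libraries, at 90 and 141. The median of whole estimates exceeded that of divided ones by 0.11 log2 units, by 0.12 and 0.11 with median-of-ratios and quantile scaling, and by 0.03 with CPM.

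The 2 kinds of estimate differed most among short transcripts. Under 500 bases, 95 of 416 whole transcripts were higher (22.8%) and 21 lower (5.05%), whereas 14.6% of the 4682 divided ones were higher and 21.3% lower. The median was 0.43 for whole and -0.16 for divided transcripts of this length. With median-of-ratios scaling these were 0.16 and -0.41. From 2000 bases up, the 2 kinds had like medians, 0.26 and 0.26 from 2000 to under 4000 bases, and 0.26 against 0.27 in the longest class. From the shortest class to the longest, the medians of whole transcripts were 0.43, 0.41, 0.31, 0.26 and 0.26. Those of divided ones were -0.16, 0.08, 0.26, 0.26 and 0.27, so the 2 kinds ran opposite ways with length. Of the 1020 lower transcripts under 500 bases 21 were whole, against 416 of the 5098 compared.

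**Figure D3:**
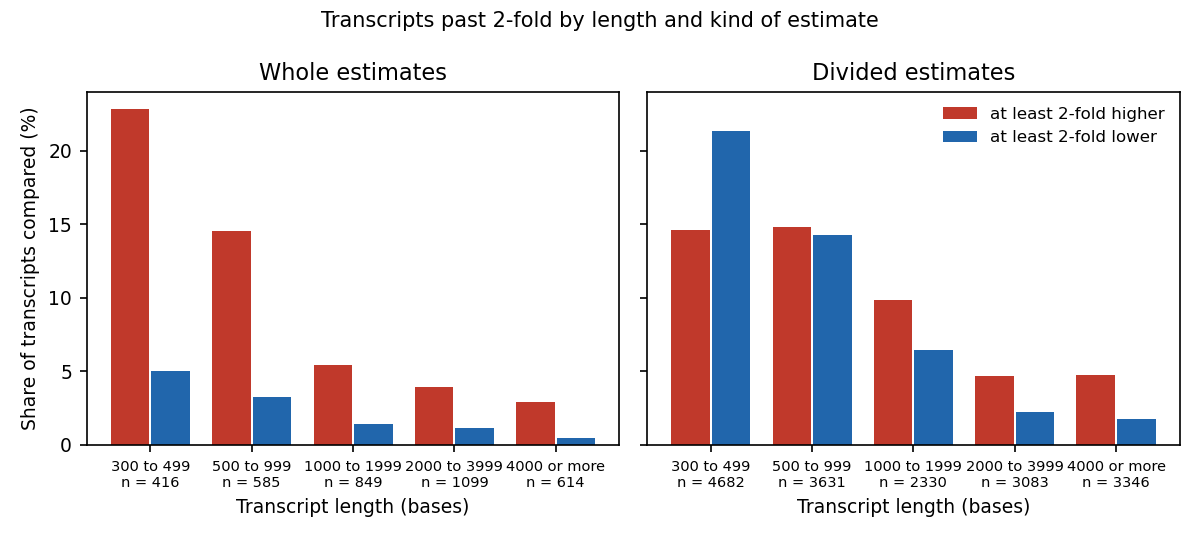
Bars give the percentage of transcripts at least 2-fold higher or at least 2-fold lower after 5 cisplatin injections, by transcript length in bases, for whole estimates on the left and divided estimates on the right, with the number compared under each class. Among divided estimates, the class under 500 bases is the one with the highest share lower, 21.3%.

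Differences were also counted by level. At a mean of under 10 TPM, 1169 of 9122 transcripts were higher (12.8%) and 865 lower (9.48%). Between 10 and 100 TPM, 732 of 10132 were higher (7.22%) and 814 lower (8.03%). At 1000 TPM or more, 9 of 90 were higher and 20 lower. Only 1 whole transcript was in that last class, at 1.74% of TPM in the control and 0.677% after 5 injections. That transcript carried 89.7% of the TPM difference of the 68 lower whole transcripts. With quantile normalization, however, it was at 12077 in both libraries, a log2 difference of 0.

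Some calls did not depend on the scaling. Calls were taken under 5 scalings, namely TPM, median-of-ratios in its 2 forms, quantile normalization and CPM. Under all 5, 894 transcripts were higher and 1543 lower, which is 43.8% of the higher and 82.8% of the lower ones. The transcripts were those kept at 5 TPM, and 1 was added to the level on each scale. In CPM, short transcripts at the filter lie close to that added 1, so their calls can fall under 2-fold from it alone. Under 500 bases 37.1% of the higher and 70.3% of the lower calls were kept, and the part of the added 1 in this was not tested. Among transcripts of 1000 bases or more 276 were higher and 306 lower under all 5, so all 306 lower calls were kept and 43.2% of the higher ones. Among whole transcripts of that length 32 were higher and 28 lower. The median of transcripts of 1000 bases or more was highest with TPM, at 0.27 log2 units against -0.16 to 0.14 with the other scalings, which favours lower calls that hold and higher calls that do not.

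Presence against absence accounted for a minority of the differences. After 5 injections 232 transcripts reached 5 TPM that had 0 counts in the control, and 318 reached 5 TPM in the control but had 0 counts after 5 injections. Their medians were 9.12 and 11.3 TPM, and 11 and 24 of them reached 100 TPM. Most were short, 144 of 232 and 227 of 318 under 500 bases, and 3 and 5 were whole in both libraries. A count of 0 allows up to 3 counts. In the other 3 libraries, which played no part in choosing them, a part of these transcripts reached 5 TPM. In the set of 232, 110 reached 5 TPM after 3 cisplatin injections, 97 after 3 injections with PRP and 121 after 5 injections with PRP. In all 3 of these libraries 50 did so, and in none of them 66. In the set of 318, with 0 counts after 5 injections, 114, 102 and 89 reached 5 TPM in the same order, 40 in all 3 and 141 in none. Of all 2041 higher transcripts, 1178, 1243 and 1049 did so in that order, and of all 1864 lower ones 1066, 873 and 772. Of the 16730 between the limits a larger part did, 13874, 14039 and 10939.

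Transcripts of 1000 bases or more called in this comparison were then followed through all 5 libraries. The 639 higher ones had a median of 3.74 TPM in the control and 12.4 TPM after 5 injections, the 2 libraries that chose them. In the libraries that did not choose them the medians were 7.12 TPM after 3 injections, 8.38 TPM after 3 injections with PRP and 4.78 TPM after 5 injections with PRP. All 3 lay between the control and the 5-injection library. The 306 lower ones had a median of 12.8 TPM in the control and 2.69 TPM after 5 injections. Their medians were 6.15 TPM after 3 injections, 4.81 TPM after 3 injections with PRP and 2.35 TPM after 5 injections with PRP. The last of these lay below the 5-injection library. Transcripts chosen as extreme in 1 library lie nearer the middle in others by that choice alone, so these levels are a description.

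The 10376 transcripts of that length between the limits were followed in the same way. They were chosen for like levels in the control and the 5-injection library, without regard to the other libraries. Their median was 9.96 TPM in the control, 12.1 after 3 injections, 13.3 after 3 injections with PRP, 11.8 after 5 injections and 8.08 after 5 injections with PRP. The 5-injection PRP library thus had the lowest median for these transcripts too. Over all lengths, however, transcripts between the limits held 72.5% of its TPM, against 63.3% in the control. It and the 3-injection library had shorter fragments, 194 and 186 bases, and the part of this in the levels was not tested.

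**Figure D4:**
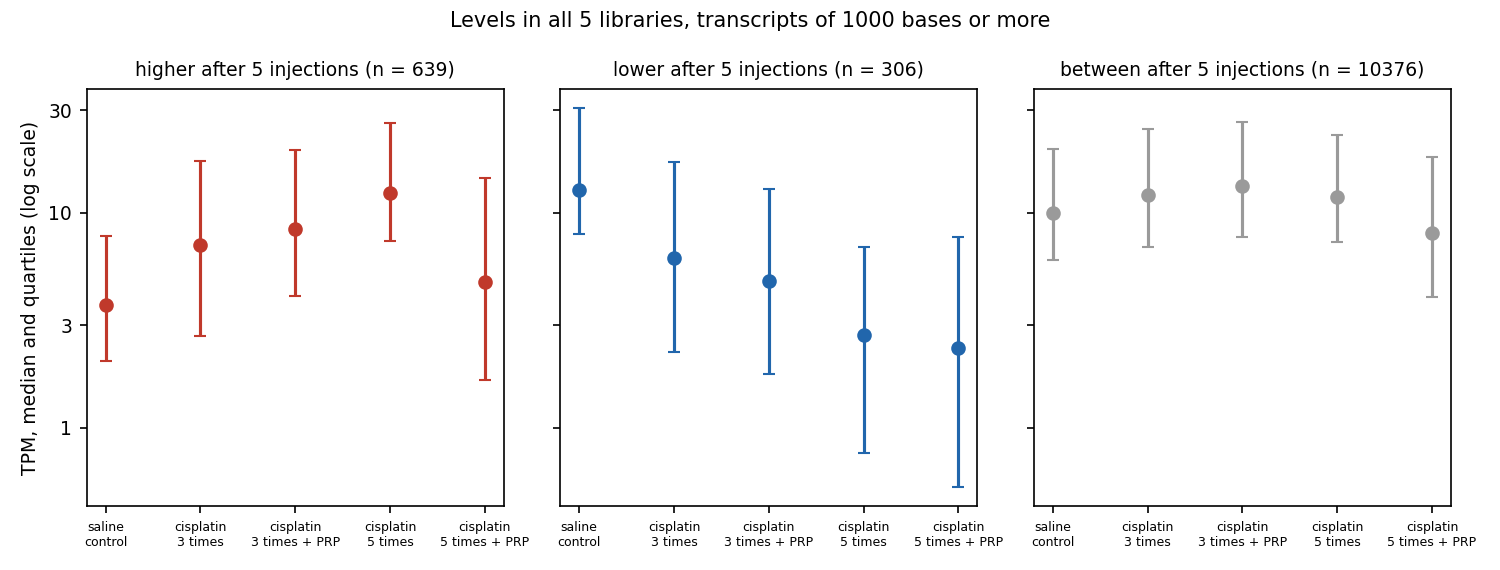
Points give the median TPM, and bars the lower and upper quartile, in each of the 5 libraries on a log scale, for transcripts of 1000 bases or more that were higher, lower or between after 5 cisplatin injections. The 639 higher transcripts have medians of 4.78 to 8.38 TPM in the 3 libraries not used to choose them, and the 306 lower ones 2.35 to 6.15 TPM.

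The same description for whole estimates rests on fewer transcripts. The 107 higher whole transcripts of 1000 bases or more had a median of 4.57 TPM in the control and 11.6 TPM after 5 injections. It was 7.22, 8.38 and 4.51 TPM after 3 injections, after 3 injections with PRP and after 5 injections with PRP, the last just below the control. The 28 lower ones had a median of 11.7 TPM in the control and 3.53 TPM after 5 injections, and 9.05, 7.95 and 3.93 TPM in those libraries. Their level after 5 injections with PRP was thus near that after 5 injections alone, while both 3-injection libraries lay nearer the control. Whole transcripts of all lengths differed from this. The 287 higher ones had medians of 2.82 TPM in the control and 8.64 TPM after 5 injections, and 2.99, 6.15 and 2.37 TPM in those libraries. For the 68 lower ones the medians were 11.7 and 2.53 TPM, and 4.49, 5.07 and 2.41 TPM. Both 3-injection libraries there lay nearer the library after 5 injections alone.

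Profiles of 4 transcripts, 2 in each direction, are given singly. They were taken from the whole transcripts of 1000 bases or more, as those with the largest difference on the log2(TPM + 1) scale or in TPM, so their differences are a description. Their estimates were whole in all 5 libraries.

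The largest upward log2 difference was in transcript_400808, of 1204 bases. It was at 1.32 TPM in the control (Poisson 95% interval 0.918 to 1.83), from 35 reads. After 5 injections it was at 17.6 TPM (15.9 to 19.4), from 387 reads, 13.4-fold higher (9.43 to 19.5) and 3.00 log2 units apart. It was at 15.9 TPM after 3 injections, 1.36 TPM after 3 injections with PRP and 31.5 TPM after 5 injections with PRP. Its level was thus low in the control and the 3-injection PRP library and more than 10 times as high in the other 3.

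The largest upward TPM difference was in transcript_396019, of 2057 bases, at 61.8 TPM in the control (59.6 to 64.0) and 131.8 TPM after 5 injections (128 to 135). This was 2.13-fold (2.04 to 2.23), or 1.08 log2 units, and fell under 2-fold with median-of-ratios scaling, at 0.85, and with CPM, at 0.85. It was at 95.01 TPM after 3 injections, 46.3 TPM after 3 injections with PRP and 51.8 TPM after 5 injections with PRP. Both cisplatin-only ovaries were thus above the control, and both PRP ovaries below it. Whole transcripts of 1000 bases or more between the limits had medians of 10.5 TPM in the control and 12.5 TPM after 5 injections. Their medians were 13.3, 14.3 and 8.64 TPM after 3 injections, after 3 with PRP and after 5 with PRP. The 5-injection PRP library was thus below the control for those too, and a part of PRP in these levels was not tested.

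The largest downward log2 difference was in transcript_210518, of 2645 bases. It went from 66.7 TPM in the control (64.8 to 68.7), 4397 reads, to 1.14 TPM after 5 injections (0.875 to 1.46), 62 reads. The control was 58.5-fold higher (45.5 to 76.4). It was at 51.4 TPM after 3 injections, 11.2 TPM after 3 injections with PRP and 7.83 TPM after 5 injections with PRP. The 5-injection ovary had the lowest level of the 5, and the 3-injection ovary was nearest the control.

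The largest downward TPM difference was in transcript_93764, of 1211 bases, at 93.0 TPM in the control (89.4 to 96.7) and 26.6 TPM after 5 injections (24.5 to 28.9). The control was 3.49-fold higher (3.19 to 3.83). It was at 30.7 TPM after 3 injections, 13.0 TPM after 3 injections with PRP and 6.22 TPM after 5 injections with PRP. All 4 treated ovaries were below the control, the PRP ones furthest. How far any of these levels varies between untreated rats is not known from 1 control.

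**Figure D5:**
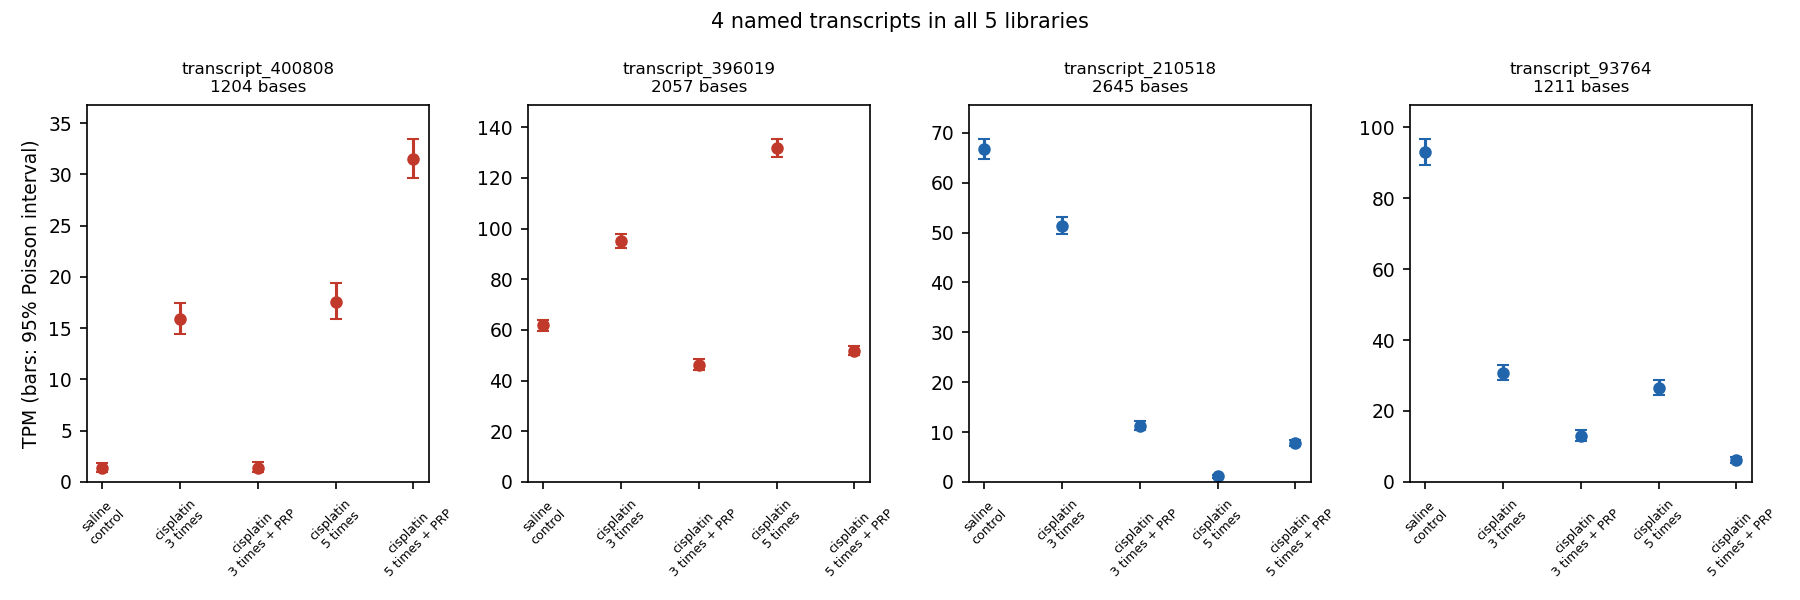
Points give TPM in each of the 5 libraries for the 4 named transcripts, with Poisson 95% intervals that cover counting error only; each panel has its own axis from 0. transcript_210518 is at 66.7 TPM in the control and 1.14 TPM after 5 injections, and transcript_400808 at 1.32 and 17.6 TPM.

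Transcripts with neighbouring numbers differed in the same direction somewhat more often than distant ones. Among 6519 pairs of compared transcripts with consecutive numbers, both were higher in 96 and both lower in 59, and they went opposite ways in 85. After a higher transcript the next number was higher in 18.4% of pairs, against 8.07% of all next numbers, and after a lower one it was lower in 18.0%, against 4.69%. At a distance of 50 numbers the shares were 14.8% against 11.00% for higher and 8.72% against 8.44% for lower. The Spearman correlation across pairs was 0.112 at a distance of 1 and 0.039 at a distance of 50, over transcripts of the same 2 libraries. In 67 of the 85 opposite pairs the summed level of the pair lay within 2-fold of the control, and so it did in 22 of 39 at a distance of 50 and 41 of 62 at a distance of 5. The files do not say what a number's order stands for.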

How the data were processed

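Per the labels' protocols, a Zymo Research column kit was used for RNA extraction and a Collibri kit for the stranded libraries. HISAT2, fastp, FastQC and MultiQC are named, without versions, per the submitters' processing notes. The quantification program, the genome build and the transcript set were not given in the sources used here. Deposited tables hold length, effective length, estimated count and TPM per transcript, per the file headers, and unlisted transcripts were taken as 0. In the 2 libraries compared, the TPM deposited by the authors was over 100 times too large against count per effective length for 110 (control) and 97 transcripts. The deposited estimated counts were over 100 times too large for 0 and 3, and these were divided by 1000. Leaving aside the TPM values that were too large, 1 transcript of the 5-injection library then still differed from its deposited TPM by over 1%. TPM was recomputed from estimated counts and effective lengths to a total of 1000000 per library. A transcript was called whole if both estimates lay within 1e-06 of an integer.

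Intervals are exact Poisson for levels, exact binomial for folds and Wilson for shares. Named transcripts were, among whole ones of 1000 bases or more, the largest log2 and the largest remaining TPM difference in each direction. Members and classes were chosen with earlier results of these data known. The call was also run on simulated counts. These held counting error only, without spread between animals or division of reads, so they cannot show how the call fares with either. Alternatives covered pseudocount, filter, scaling, length and kind of estimate. Python 3.11.15, pandas 2.3.3, numpy 2.4.6, scipy 1.17.1 and matplotlib 3.10.9 were used.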

Additional observations from a re-analysis of the deposited data

How the results depend on the processing

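No paired analysis was possible because each group had 1 library, and for the same reason no replicate could be left out. The main setting gave 2041 higher, 1864 lower and a median of 0.22 log2 units. With no filter or a filter of 1 TPM they were 6407 and 3806, the pseudocount of 1 TPM making both alike, with medians of 0.16 and 0.34. With a filter of 20 TPM they were 707 and 883 (median 0.16). A pseudocount of 5 TPM gave 1056 higher (0.16) and one of 0.1 TPM a median of 0.23. Transcripts of 500 bases or more, rescaled among themselves, gave 1344 higher (0.12), whole estimates 287 and 68 (0.30), and a 4-fold limit 612 and 804. Quantile normalization gave a median of 0.089, CPM 0.0615 and median-of-ratios scaling -0.028. Of the alternatives chosen after seeing the data, size factors over all transcripts listed in both libraries gave 1030 and 3124 (-0.23), and leaving transcripts at 1000 TPM or more out of the total gave a median of 0.096. TPM as deposited gave 2133 and 1972. More transcripts were higher than lower with the main setting, both weaker filters, the smaller pseudocount, deposited TPM, transcripts of 500 bases or more and whole estimates, and fewer with the other settings. The cause of these shifts was not tested.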
